A study of Homo sapiens with 2 samples.

Results

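Laminin subunit genes were examined in RNA-seq data of Huh7 cells, a human hepatocellular carcinoma cell line. The 9 genes were LAMA1, LAMA2, LAMA3, LAMA4 and LAMA5 for alpha chains, LAMB1, LAMB2 and LAMB3 for beta chains, and LAMC1 for a gamma chain. They were taken by symbol from the 61541 genes of the deposited table, and they were selected on measured values of the comparison described here, so their differences between the libraries are given as a description with no test. Of the 9 genes, 7 had at least 10 reads over both libraries, and LAMA1 and LAMA2 did not.

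The study compared Huh7 cells given a control siRNA (Huh7-NC) with Huh7 cells given an siRNA against BRF2 (Huh7-si) to ask which mRNAs change when BRF2 is lowered. BRF2 is a subunit of a transcription initiation factor used by RNA polymerase III. Each condition was 1 library of total RNA from 1 cell line, with no other treatment or allele given in the labels and no replicate check of any difference. For each gene the authors gave an estimated read count, which is not always a whole number, and a TPM value, which is abundance scaled for length and library size. The estimated counts summed to 22852648 in Huh7-NC against 22089016 in Huh7-si. CPM is a gene's reads relative to all reads on genes in that library, and a fold change here is the ratio of CPM in Huh7-si to CPM in Huh7-NC. The targeted gene, BRF2, had 1281 reads in Huh7-NC against 364 in Huh7-si (log2 fold change -1.77). All 8 markers of hepatocytes and hepatoma cells, ALB and AFP among them, were present in both libraries, with a summed level of 15494 CPM in Huh7-NC against 15523 CPM in Huh7-si. Single markers moved both ways within this sum, with 3 of the 8 higher in Huh7-si. AFP had 4723 CPM in Huh7-NC against 5593 CPM in Huh7-si, ALB 5555 and 5155, and APOA1 677 and 381 (log2 fold change -0.83).

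Laminins are large secreted glycoproteins of the basement membrane, the sheet of matrix that underlies epithelia and endothelia and surrounds muscle and nerve. Each is a trimer of an alpha, a beta and a gamma chain joined through a coiled coil, so 3 genes contribute to every molecule. The short arms polymerize into a network, and the end of the alpha chain binds integrins and dystroglycan on the cell. In normal liver the sinusoids lack a continuous basement membrane, whereas bile ducts and vessels have one.

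The laminin genes are scattered over the genome (positions are from GENCODE release 29, GRCh38, since the table holds no coordinates). LAMA5, on the minus strand of chr20:62307955-62367312, has 80 exons and a coding length of 11085 bases. LAMB1 lies on the minus strand of chr7:107923799-108003255 with 32 exons. LAMB2 takes a far shorter stretch, chr3:49121114-49133118 on the minus strand, for 33 exons and a coding length close to that of LAMB1 (5394 against 5430 bases). LAMC1 is on the plus strand of chr1:183023460-183145592 with 28 exons. LAMA3 is at chr18:23689443-23956222, LAMA4 at chr6:112108760-112254939, LAMB3 at chr1:209614870-209652466, LAMA2 at chr6:128883141-129516569 and LAMA1 at chr18:6941744-7117814. The exons of the 7 counted genes number between 22 and 80, and 87.4% of the protein-coding genes with at least 10 reads have fewer than 22.

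Sequences before the start are shown for 4 chains, LAMA5 and LAMC1 because their windows were the richest in G and C, and LAMA3 and LAMB3 because theirs held the AP-1 letters. The 250 bases before the RefSeq start (GRCh38.p14) were read for 8 of the 9 genes, all but LAMA1, on the gene's own strand from 5′ to 3′. For LAMA5 and LAMC1, both strongly expressed, capitals mark the GC box, GGGCGG on either strand, the sequence bound by Sp1-type factors. For LAMA3 and LAMB3, both weakly expressed, capitals mark TGACTCA on either strand, the sequence bound by AP-1 factors such as Fos and Jun. The LAMA5 stretch is chr20:62367313-62367562 on the minus strand and the LAMC1 stretch is chr1:183023170-183023419 on the plus strand. The LAMA3 stretches are chr18:23872884-23872913 and chr18:23872940-23872969 on the plus strand, inside the gene at the start of a shorter transcript, and the LAMB3 stretch is chr1:209651423-209651452 on the minus strand.
LAMA5: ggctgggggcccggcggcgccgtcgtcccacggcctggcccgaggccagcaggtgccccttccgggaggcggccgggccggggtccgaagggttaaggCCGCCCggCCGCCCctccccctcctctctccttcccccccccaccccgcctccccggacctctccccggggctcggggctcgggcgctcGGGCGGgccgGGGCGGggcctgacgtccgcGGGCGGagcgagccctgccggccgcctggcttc
LAMC1: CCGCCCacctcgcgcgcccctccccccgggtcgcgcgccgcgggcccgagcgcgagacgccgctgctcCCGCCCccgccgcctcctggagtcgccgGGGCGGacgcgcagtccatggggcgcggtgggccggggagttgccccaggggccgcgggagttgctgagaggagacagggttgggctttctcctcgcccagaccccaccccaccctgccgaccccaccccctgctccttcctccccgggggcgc
LAMA3 first stretch: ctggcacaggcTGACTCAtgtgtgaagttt
LAMA3 second stretch: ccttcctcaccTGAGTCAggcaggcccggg
LAMB3: gtcagccactcTGACTCAttcactttgggc

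In the LAMA5 window 82.8% of bases were G or C, with 32 CpG dinucleotides and 5 GC boxes. The LAMC1 window had 79.6% G or C, 32 CpG dinucleotides and 3 GC boxes, and the LAMB1 window 70.4%, 28 and 4. LAMB2, whose TPM was above those of LAMA5 and LAMC1, had 58.4% G or C, 12 CpG dinucleotides and 1 GC box. The windows of LAMA4 and LAMA2 had 48.4% and 53.2% G or C and no GC box. The weakly expressed LAMA3, whose window lies inside the gene at the start of a shorter transcript, had 60.4% G or C and 1 GC box. The 3 windows of LAMB3, also weakly expressed, had 64%, 60% and 54% G or C and 1 GC box each. Over all 35116 RefSeq windows the median was 58% G or C, and 42.6% held at least 1 GC box.

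TGACTCA occurred 2 times in the LAMA3 window, at 125 and 69 bases before the start, and the second copy overlaps an E-box, CACCTG. Of the 3 RefSeq start windows of LAMB3, 1 held the AP-1 letters, 67 bases before the start, and also a GC box. The other laminin windows held none. Among all windows 4.2% held at least 1 copy and 0.182% held 2 or more, while CACCTG occurred in 17.5% and the TATA box letters TATAAA in 10.7%. No window of the 8 genes held TATAAA. These matches describe the letters of the windows, and binding was not measured.

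Levels within a library were compared by TPM, since reads alone favor long transcripts. Huh7 cells expressed 4 of the 9 laminin genes strongly and 3 weakly. The 4 strong chains were LAMA5, LAMB1, LAMB2 and LAMC1, which between them cover the alpha, beta and gamma classes. They took 98.5% of the reads of the 9 genes in Huh7-NC against 98.3% in Huh7-si. Because the RNA is from bulk cells, more cells that express a chain and more RNA per cell cannot be told apart.

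**Figure D1:**
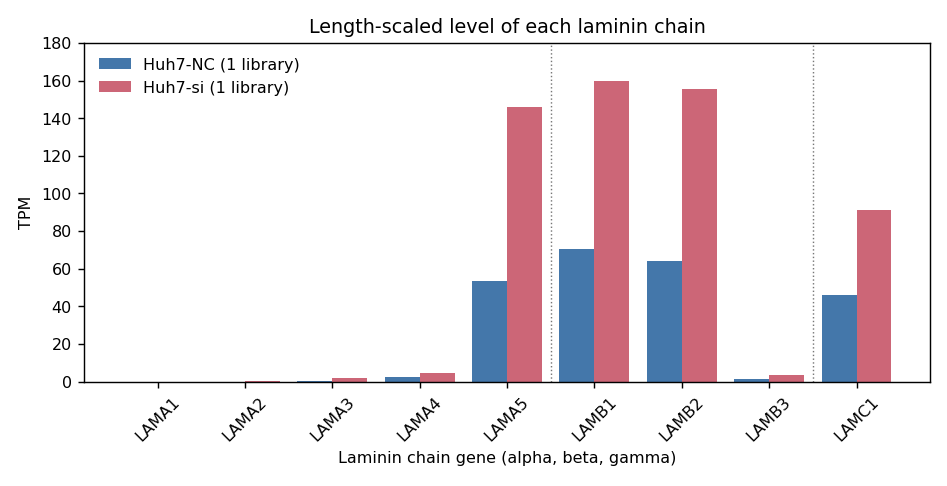
TPM (vertical axis, linear from 0) of the 9 laminin genes in Huh7-NC (blue) and Huh7-si (red), 1 library each, with dotted lines between alpha, beta and gamma chains. LAMA5, LAMB1, LAMB2 and LAMC1 stand far above the other chains in both libraries, from 46.28 TPM for LAMC1 to 70.36 TPM for LAMB1 in Huh7-NC.

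LAMA5, the alpha chain found in most adult epithelial and vascular basement membranes, was at 53.52 TPM in Huh7-NC against 145.96 TPM in Huh7-si. It made up 95.3% of the summed alpha chain TPM in Huh7-NC against 95.6% in Huh7-si. LAMA4, the alpha chain of vessel walls and mesenchyme, was at 2.34 TPM in Huh7-NC against 4.66 TPM in Huh7-si. LAMA3, the alpha chain of the anchoring complex of stratified epithelia, was at 0.32 TPM in Huh7-NC against 1.91 TPM in Huh7-si. Its share of the alpha chain TPM was 0.57% in Huh7-NC against 1.25% in Huh7-si, whereas that of LAMA4 was 4.17% and 3.05%. LAMA2, the alpha chain of muscle and peripheral nerve, had 0 reads in Huh7-NC against 3 in Huh7-si. LAMA1, known mainly from embryonic basement membranes, had 0 reads in both. With 0 reads counted, up to 3 remain possible, equal to 0.131 CPM in Huh7-NC against 0.136 CPM in Huh7-si, so neither gene was given a fold.

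Among the 3 beta chains, LAMB1, the beta chain of most laminins, was at 70.36 TPM in Huh7-NC against 159.63 TPM in Huh7-si. LAMB2, known from the kidney filter and the neuromuscular junction, was at 64.12 TPM in Huh7-NC against 155.49 TPM in Huh7-si. LAMB1 thus made up 51.8% of the TPM of these 3 beta chains in Huh7-NC against 50.1% in Huh7-si, and LAMB2 47.2% and 48.8%. This near balance rests on the length used. With reads divided by the deposited gene length, LAMB1 took 68.2% and 69.3% of the beta chains and LAMB2 30.1% and 29.4%, in Huh7-NC and Huh7-si. The deposited lengths of LAMB1 and LAMB2 are 5650 and 5692 bases, a ratio of 1.01, yet the reads behind each unit of TPM for LAMB2 were 0.488 times those for LAMB1 in Huh7-NC and 0.438 times in Huh7-si. LAMB3, which pairs with LAMA3, was at 1.45 TPM in Huh7-NC against 3.29 TPM in Huh7-si.

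LAMC1, the gamma chain shared by most laminins, was at 46.28 TPM in Huh7-NC against 91.07 TPM in Huh7-si.

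The order of the chains by TPM was the same in both libraries: LAMB1, LAMB2, LAMA5, LAMC1, LAMA4, LAMB3 and LAMA3. By reads per deposited length it was LAMB1, LAMC1, LAMB2, LAMA5, LAMB3, LAMA4 and LAMA3 in both, so the places of LAMC1 and of LAMB3 depend on the length used. With 1 library per condition no spread between samples is available for neighbors in this order. Summed over classes, alpha chains were at 56.2 TPM in Huh7-NC against 153 TPM in Huh7-si, and beta chains at 136 and 318 TPM. The TPM of LAMA5 relative to LAMC1 was 1.16 in Huh7-NC against 1.6 in Huh7-si, and by reads per deposited length it was 0.595 and 0.819. Either way LAMA5 stood higher relative to LAMC1 in Huh7-si, while the choice of length decides which of them is the more abundant.

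**Figure D2:**
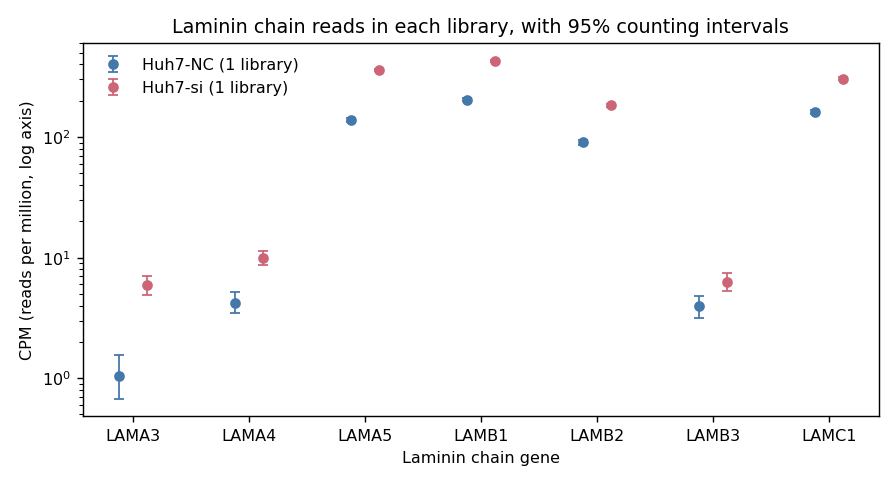
CPM (vertical axis, log scale) of the 7 laminin genes with at least 10 reads over both libraries, in Huh7-NC (blue) and Huh7-si (red), 1 library each, with exact 95% Poisson counting intervals. Every gene sits higher in Huh7-si, and the intervals of a gene's 2 libraries do not overlap, from 203 to 428 CPM for LAMB1 down to 1.05 to 5.89 CPM for LAMA3.

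All 7 counted laminin genes had a higher CPM in Huh7-si than in Huh7-NC, and 5 of them passed a 2-fold rise, LAMA3, LAMA4, LAMA5, LAMB1 and LAMB2. Over all 17921 genes with at least 10 reads, 15.2% passed a 2-fold rise and 1.81% a 2-fold fall, and none of the 7 fell. Because the genes were selected on this difference, nothing is read from their count beside these shares. The summed reads of the 9 genes were 13741 in Huh7-NC against 28618 in Huh7-si, a CPM ratio of 2.15. The median log2 fold change was 1.08 for the 7 genes and 0.21 for all genes counted. Intervals given below are 95% Clopper-Pearson intervals for the ratio, and they cover counting error only.

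LAMA5 had 3155 reads in Huh7-NC against 7929 in Huh7-si, or 138 and 359 CPM, a fold of 2.6 (interval 2.49 to 2.71). LAMA3 had the largest fold of the 7 genes and the lowest level among them in both libraries. It had 24 reads in Huh7-NC against 130.0 in Huh7-si, a fold of 5.6 (3.61 to 9.06). LAMA4 had 97 reads in Huh7-NC against 220.0 in Huh7-si, a fold of 2.35 (1.84 to 3.01). The interval of LAMA4 thus reaches below 2-fold, while those of LAMA5 and LAMA3 lie above it.

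LAMB1 had the most reads of the 9 genes, 4632 in Huh7-NC against 9444 in Huh7-si, a fold of 2.11 (2.04 to 2.19). LAMB2 had 2061 and 4032 reads, a fold of 2.02 (1.92 to 2.14), which was the value just inside the 2-fold threshold. LAMC1 had 3682 and 6721 reads, a fold of 1.89 (1.81 to 1.97), which was the value just outside it. LAMB2 and LAMC1 therefore fell on different sides of the threshold with folds that lie close together. LAMB3 had 90 reads in Huh7-NC against 139 in Huh7-si, a fold of 1.6 (1.22 to 2.11), the smallest of the 7.

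LAMA3 and LAMB3 occur together in the laminin that anchors stratified epithelia. LAMA3 had a fold of 5.6 by reads and 5.97 by TPM, and LAMB3 had 1.6 by reads and 2.27 by TPM, a difference between them that was not tested. The TPM of LAMA3 relative to LAMB3 was 0.221 in Huh7-NC against 0.581 in Huh7-si. Both were weakly expressed, with at most 3.29 TPM for LAMB3 in Huh7-si.

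**Figure D3:**
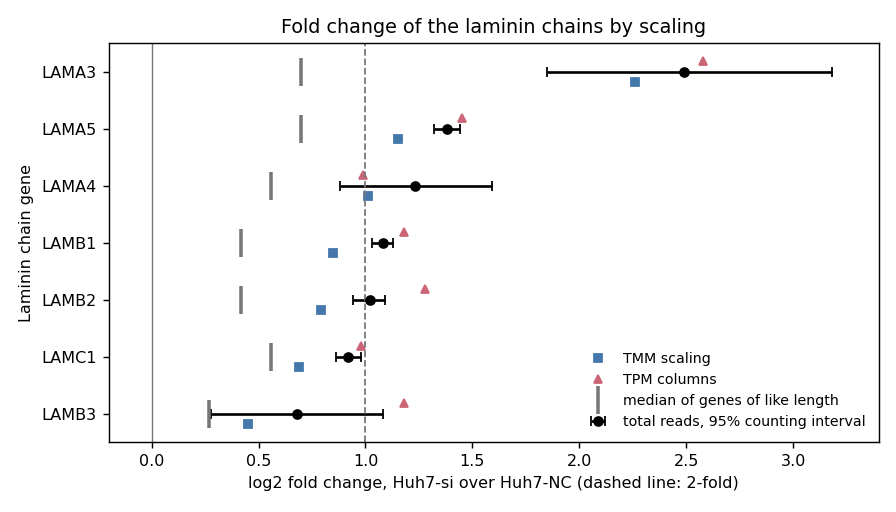
Log2 fold change of Huh7-si over Huh7-NC (horizontal axis) for the 7 laminin genes, by total reads with 95% counting intervals (black), by TMM scaling (blue squares) and by TPM (red triangles), with grey ticks at the median of protein-coding genes of like length and a dashed line at 2-fold. The ticks are by total reads, so only the black points share their scale, and every black point lies above its tick. TMM scaling moves all values lower by 0.22, which takes LAMB1 and LAMB2 to 0.85 and 0.79.

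How many laminin genes passed 2-fold depended on the scaling. TMM, which sets most genes to no change, lowered every log2 fold change by 0.22 and brought the median of all genes to -0.01. Relative to that shift 3 laminin genes passed 2-fold, LAMA3 (log2 fold change 2.26), LAMA5 (1.15) and LAMA4 (1.01), beside 11.0% of all genes, and the median of the 7 was 0.85. TMM also changed the split of all called genes from 89.3% higher to 78.4% higher. By TPM 5 laminin genes passed, LAMA3, LAMA5, LAMB1, LAMB2 and LAMB3, beside 20.5% of all genes, with LAMB3 at 1.18 and LAMA4 at 0.99. The log2 fold by TPM differed from that by reads by between -0.24 for LAMA4 and 0.51 for LAMB3, with a median of 0.18 over all genes. All 7 genes kept a positive value under each of these scalings.

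Transcript length moved with the fold change across the whole table. The protein-coding genes were sorted into 20 bins by deposited length, and the median log2 fold change went from -0.37 in the shortest bin to 0.70 in the longest, where 28.7% of genes passed a 2-fold rise. Laminin transcripts are long. The 7 counted genes are between 4305 and 11426 bases, with a median of 7228, against a median of 3024 bases for protein-coding genes, and 69.6% of these are shorter than the shortest of the 7. Among the 3979 protein-coding genes of the same length range, 13.5% passed a 2-fold rise and the median log2 fold change was 0.44.

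**Figure D4:**
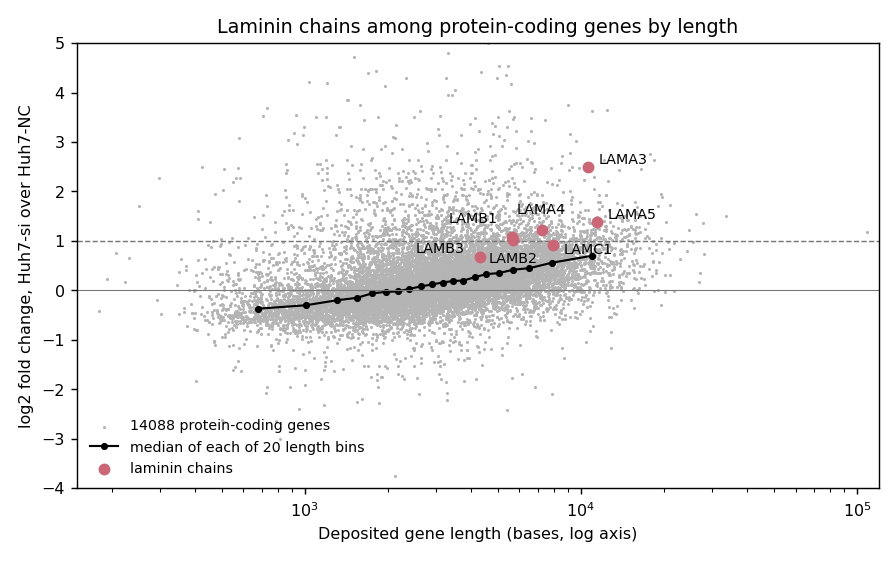
Log2 fold change of Huh7-si over Huh7-NC (vertical axis) against deposited gene length (horizontal axis, log scale) for 14088 protein-coding genes (grey), of which 8 lie outside the plotted range, with the median of each of 20 length bins (black line) and the 7 laminin genes (red). The black line climbs from -0.37 to 0.70, and the 7 laminin genes lie above it.

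Each of the 7 laminin genes lay above the median of genes of like length, by 0.36 for LAMC1 to 1.79 for LAMA3 on the log2 scale, with a median of 0.65. Less that median, only LAMA3 passed 2-fold, beside 12.9% of all genes treated in the same way. LAMA5, in the longest bin, was 0.68 above its bin, and 11.1% of the genes in that bin had a fold at least as large. The same share was 1.56% for LAMA3, 6.96% for LAMA4, 11.5% for LAMB1, 13.2% for LAMB2, 18% for LAMC1 and 18.9% for LAMB3. These shares rank the fold change on which the genes were selected, so they are a description and not a test. Among protein-coding genes of the same length range with at least 2000 reads over both libraries, a limit chosen after the values were seen, 5.08% passed a 2-fold rise. LAMA5, LAMB1, LAMB2 and LAMC1 reach that depth, and all but LAMC1 passed. Since the genes were selected on this difference, nothing is read from that beside the 5.08%. The part of transcript length in the laminin values was not tested beyond these comparisons.

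Base composition varied among the 7 genes from 46.6% G or C in the LAMA4 transcript to 66.4% in the LAMA5 transcript, around a median of 48.9% for protein-coding genes. LAMA5 and LAMB2, with 66.4% and 60.3%, were 1.37 and 0.99 above the median of genes of like composition on the log2 scale. LAMB1 and LAMC1, with 49.5% and 48.7%, were 0.91 and 0.78 above. All 7 lay above that median, by between 0.65 for LAMB3 and 2.32 for LAMA3.

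The longest protein-coding transcript of each of the 9 laminin genes was searched for shared sequence. No stretch of 31 bases of it occurred on the same strand in a GENCODE transcript of another gene. Some laminin genes overlap others on the opposite strand, and whether the counting used strand is not given in the sources used here. ADRM1, a proteasome subunit gene that overlaps LAMA5, had 14159 reads in Huh7-NC against 10514 in Huh7-si. DLD, which overlaps LAMB1 and encodes a dehydrogenase subunit, had 2273 and 1982 reads. ADRM1 and DLD therefore had fewer reads in Huh7-si while LAMA5 and LAMB1 had more. The antisense genes LAMA5-AS1 and LAMC1-AS1 were at 0 in both libraries, AC005046.1 opposite LAMB1 had 3.28 and 20.6 reads, and AL365214.3 opposite LAMA4 had 50.2 and 62.9.

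Genes for other proteins of the basement membrane were examined next, from a list of 25. Of these, 17 had at least 10 reads, 5 passed a 2-fold rise (29.4%) and none a 2-fold fall, beside 15.2% and 1.81% of all genes and a rise of that size in 13.5% of protein-coding genes of the laminin length range. The median log2 fold change of the list was 0.73. NID1, nidogen, which links the laminin network to collagen IV, had 10196 reads in Huh7-NC against 16794 in Huh7-si (log2 fold change 0.77). HSPG2, the heparan sulfate proteoglycan perlecan, had 2576 and 5877 reads, a log2 fold change of 1.24. AGRN, agrin, which binds the laminin coiled coil, had 4978 and 8008 reads, and its value was 0.73. FBLN1, a fibulin of the matrix, had 7878 and 8018 reads, with a log2 fold change of 0.07.

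Among collagen IV chains the network-forming pair typical of most basement membranes was close to undetected. COL4A1 had 2 and 5 reads and COL4A2 had 2 and 6 reads in Huh7-NC and Huh7-si (both named after their values were seen). COL4A5 had 281 and 617 reads, a log2 fold change of 1.18. NPNT, nephronectin, an integrin ligand, had 628 and 1299 reads, a log2 fold change of 1.10, and HMCN1, a hemicentin named after its values were seen, had 8 and 48 reads. FRAS1, a protein of the epithelial basement membrane, had 994 and 2123 reads, a log2 fold change of 1.14, but by TPM it went from 45.6 to 16.09, a log2 value of -1.5. The direction of FRAS1 thus depends on the measure. Under TMM the list's median was 0.51 with 2 of 17 genes past a 2-fold rise, beside 11.0% of all genes. Relative to genes of like length it was 0.21, also with 2, beside 12.9%.

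**Figure D5:**
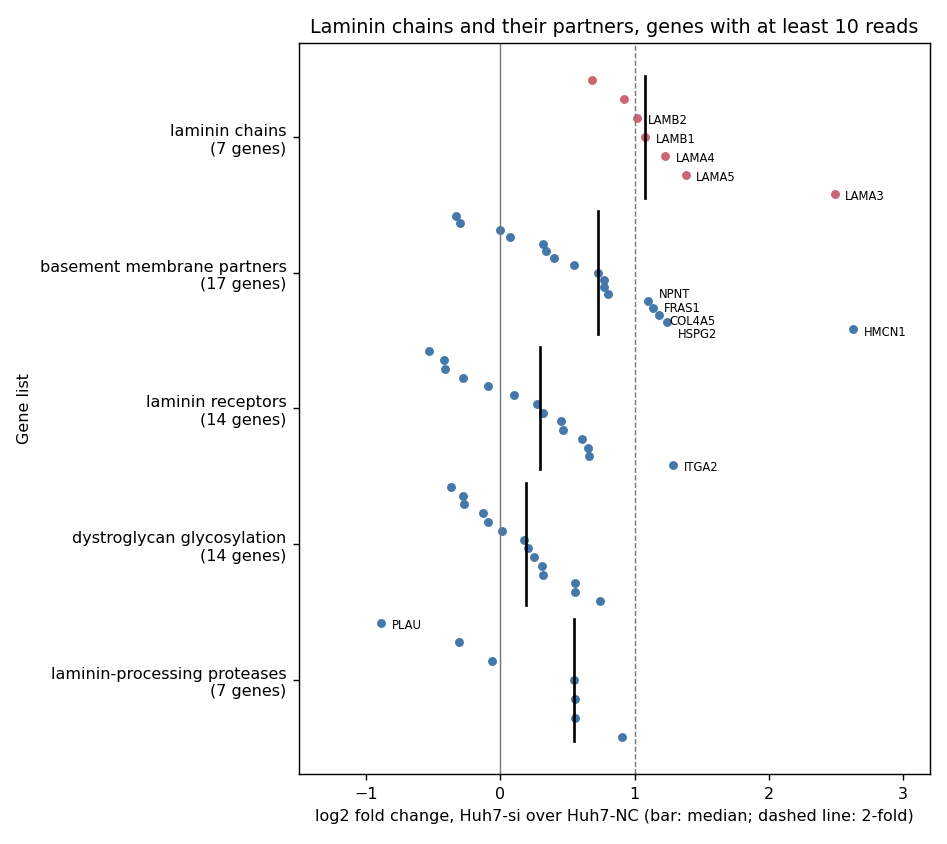
Log2 fold change of Huh7-si over Huh7-NC (horizontal axis) by total reads for the genes of 5 lists with at least 10 reads, 1 point per gene, with a bar at each list's median and a dashed line at 2-fold. The medians are 1.08 for laminin chains, 0.73 for basement membrane partners, 0.29 for laminin receptors, 0.19 for dystroglycan glycosylation and 0.55 for laminin-processing proteases.

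The receptors that bind laminin on the cell surface had a median close to the 0.21 of all genes. All 14 on the list had at least 10 reads, 1 passed a 2-fold rise (7.14%, beside 15.2% of all genes) and none fell as far, with a median log2 fold change of 0.29. Among the 14088 protein-coding genes counted, 1395 passed a 2-fold rise, a smaller share than among all genes. That median was 0.53 by TPM, 0.07 under TMM and 0.06 less the bin medians by length. ITGA2, the integrin alpha chain that binds collagen and laminin, was the gene past 2-fold, with 489 reads in Huh7-NC against 1155 in Huh7-si. ITGB1, the beta chain of most laminin-binding integrins, had 9921 and 13257 reads, a log2 fold change of 0.47. BCAM, a receptor for laminins that hold the LAMA5 chain, had 9721 and 11731 reads, a value of 0.32. RPSA, a ribosomal protein also known as a laminin receptor, had 49845 and 33402 reads, a value of -0.53. DAG1, dystroglycan (named after its values were seen), had 4626 and 6118 reads.

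None of the 14 genes that glycosylate dystroglycan, a modification its binding to laminin requires, passed 2-fold in either direction. Beside them, 15.2% of all genes rose and 1.81% fell as far, and of the 14088 protein-coding genes counted 1395 rose and 166 fell. The median log2 fold change of the 14 genes was 0.19. Of the most highly counted, B4GAT1 was at -0.27, GMPPB at -0.37 and POMGNT1 at 0.01 on the log2 scale. The sign of this median flips with scaling, to -0.03 under TMM, while by TPM it was 0.46 with 3 genes past a 2-fold rise, beside 20.5% of all genes. Of the 12 proteases that cut laminins or act on their chains, 7 were counted and none passed 2-fold in either direction, against the same shares of all genes, with a median of 0.55. MMP14, a membrane-bound metalloprotease, had 1869 and 2638 reads, MMP15 had 3171 and 2937, and BMP1, which trims procollagens and some laminin chains, had 676 and 1230. PLAU, the urokinase gene (named after its values were seen), had 153 and 80 reads, a log2 fold change of -0.89 that passed a 2-fold fall at -1.11 under TMM. MMP2, MMP7 and MMP9, also named after their values were seen, had 0 reads in both libraries. Of the 6 netrins, which share domains with laminin short arms, 2 were counted, and NTN4 had 29 and 85 reads while NTN1 had 63 and 70.

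Cell types other than hepatoma cells also make laminins, so their markers were examined in the same libraries. Of the 9 stellate cell and fibroblast markers, COL1A1 had 76 and 229 reads in Huh7-NC and Huh7-si, COL1A2 had 737 and 1687, and COL3A1 had 19 and 44, each past a 2-fold rise. These were 3 of the 7 rows of the list with at least 10 reads (42.9%), beside 15.2% of all genes. Under TMM 3 passed a 2-fold rise, beside 11.0% of all genes, and by TPM 2, beside 20.5%. Relative to genes of like length 1 passed, beside 12.9%. The summed level of this list was 49.4 CPM in Huh7-NC against 106 CPM in Huh7-si. Of these sums COL1A2 made up 32.3 and 76.4 CPM. PDGFRB had 158 and 218 reads, LUM 36 and 50, and ACTA2 2 and 7, while RGS5 is listed under 2 identifiers, with 61.6 and 75.8 reads and with 40.4 and 25.2. DCN, a fibroblast marker, and LRAT, a stellate cell marker, had 0 reads in both libraries. Of the 7 endothelial markers 1 had at least 10 reads, PECAM1 with 60 and 63, the list summed to 2.8 and 3.03 CPM, and KDR, TEK and CLEC4G had 0 reads. The 5 leukocyte markers summed to 482 and 424 CPM, almost all of it LYZ, with 5 and 1 reads of PTPRC and none of CD163. The 4 cholangiocyte markers summed to 366 and 381 CPM, with 0 and 3 reads of KRT7. The summed level of the stellate cell and fibroblast list, most of it from COL1A2, was higher in Huh7-si. Both libraries are labeled as Huh7 cells, and COL1A2 reads do not show which cells they came from. Any part of other cells in the laminin values was not tested.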

How the data were processed

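The data were RNA-seq of Huh7 cells given control siRNA (Huh7-NC) or BRF2 siRNA (Huh7-si), 1 library per group. The authors deposited a gene length and, for each library, a TPM value and an estimated count that is not scaled to depth. The submitters' processing notes name Bowtie2 2.0.6, TopHat2 2.0.12 and GRCh37 without their roles, and the counting tool, annotation and strandedness are not given in the sources used here. The authors' deposited fold (ratio), log2 fold change, p-value and adjusted p-value columns compare the same 2 libraries and were not used.

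The total of estimated counts was 22852648 in Huh7-NC and 22089016 in Huh7-si. Ratios of CPM were computed for genes with at least 10 reads over both libraries, and a gene with a fold of at least 2 was called. No p is given, because 1 library per group leaves no spread between replicates. Ratios have 95% Clopper-Pearson intervals and single levels 95% exact Poisson intervals, on rounded counts, covering counting error only. Where both libraries were at or under 3 reads, no fold was given. The members and lists were chosen with earlier results of these data known. Every laminin member is named. One gene of the planned lists is left out and not reported here. Of each other list, the text names the 3 genes with the most reads over both libraries and any past 2-fold that reached 100 reads in a library, and others are given as named after their values were seen; cell type markers fall outside this rule.

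GENCODE release 29 (GRCh38) holds 94.8% of the table's gene identifiers and was the source of positions, exons, gene types and transcript sequences. Genes were put in 20 bins by deposited length, or by transcript G and C content, and bin medians were subtracted. Motifs were searched on both strands of RefSeq windows (GRCh38.p14) of 250 bases before the start. Alternatives were other scalings (TMM of edgeR 4.0.16, median of ratios of DESeq2 1.42.0, the total less the 100 top genes, upper quartile), TPM, pseudocounts of 0.5 reads or 1 CPM, other filters, a fold of 1.5, protein-coding genes alone and genes of like length. Genes of like transcript G and C content were added after seeing the data. Fold changes and intervals were tested on simulated data. Software was R 4.3.3 and Python 3.11.15 with SciPy 1.17.1, NumPy 2.4.6, matplotlib 3.10.9 and pandas 2.3.3.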

Additional observations from a re-analysis of the deposited data

How the results depend on the processing

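No paired analysis was possible because each group has 1 library, and for the same reason no library could be left out. Differences of the 7 counted laminin genes kept their sign in all 63 values computed under 9 alternatives. Their median log2 fold change, 1.08 by total reads, was 0.85 with TMM, 0.87 with the median of ratios, 0.89 with the upper quartile, 1.18 by TPM, 0.65 less genes of like length and 0.99 less genes of like G and C content, the last added after seeing the data. Of these genes 5 passed 2-fold by total reads, 3 with TMM, the median of ratios, the upper quartile or genes of like G and C content, and 1 less genes of like length. Of all 17921 genes counted, 2723 passed a 2-fold rise by total reads, 1980 with TMM and 2041 with the median of ratios. That number was 2105 with the upper quartile and 2310 less genes of like length. It was 1000 of 13944 protein-coding genes less genes of like G and C content.

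Over all genes, 2723 were higher and 325 lower past 2-fold. The number higher was 911 with a pseudocount of 1 CPM, 1441 with at least 10 reads in each library, 5176 at a fold of 1.5, 1395 among protein-coding genes and, over the 13944 protein-coding genes with a G and C content, 1000 less genes of like content. The number lower was 544 with TMM, 512 with the median of ratios, 43 with a pseudocount of 1 CPM, 108 with at least 10 reads in each library, 584 with no filter, 1041 at a fold of 1.5, 166 among protein-coding genes and 216 less genes of like G and C content, over the same 13944.

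With reads per deposited length in place of TPM, LAMA5 was 94.2% of alpha chains in Huh7-si, and LAMB1 68.2% and LAMB2 30.1% of beta chains in Huh7-NC and 69.3% and 29.4% in Huh7-si. The dystroglycan glycosylation median, 0.19, was -0.03 with TMM, -0.01 with the median of ratios and -0.03 less genes of like length. The cause of these shifts was not tested. Depth limits LAMA3, LAMA4 and LAMB3 most, and LAMA1 and LAMA2 were not measurable at this depth.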
